A study of Homo sapiens with 8 samples.

Results

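The genes examined here were 10 feedback and output genes of the ERK pathway. They comprised the phosphatase genes DUSP4, DUSP5 and DUSP6, the inhibitor genes SPRY2, SPRY4, SPRED1 and SPRED2, the transcription factor genes ETV4 and ETV5, and PHLDA1. They were picked by name from the 56632 genes of the count table, after an ERK output list had already been seen to stand high in M4 compared to M1 cells, and all 10 were among the 18431 genes that had enough reads to be tested. Their counts and p-values therefore describe the list and are not independent evidence about it.

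Poly A+ RNA was sequenced from 4 isogenic human mammary epithelial lines, with 2 replicates each. M1 is MCF10A, a spontaneously immortalized line that forms no tumors. M2 (MCF10AT1k.cl2) came from M1 through transfer of the activated T24 form of HRAS and selection in a mouse xenograft. It forms premalignant lesions. M3 (MCF10Ca1h) and M4 (MCF10CA1a.cl1) came from carcinomas that arose in xenografts of M2, and so carry the same HRAS history; the tumors of M3 are mainly of low grade and keep much of their differentiation, whereas those of M4 have largely lost it, and injected M4 cells can also settle in the lung. Each stage was represented by a single line. All lines were grown as 3D acini in Matrigel (2.5%) for 8 days, in medium with 2% horse serum, hydrocortisone, cholera toxin and insulin. M1 and M2 cells also received EGF at 10 ng/ml, whereas M3 and M4 cells received none. Any difference between M1 or M2 and M3 or M4 cells is therefore a difference of both line and EGF, and these cannot be told apart.

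ERK is the last kinase of the cascade that runs from growth factor receptors through RAS, RAF and MEK. Active ERK switches on a set of early genes, and many of their products turn the cascade down again: DUSP phosphatases remove phosphate from ERK itself, Sprouty (SPRY) proteins hold back signaling between receptors and RAS, and SPRED proteins act on RAS together with neurofibromin. Others carry the output forward, such as the ETS-family transcription factors ETV4 and ETV5. Because these transcripts turn over quickly, their levels are widely read as a gauge of recent ERK signaling in epithelial and tumor cells. In bulk RNA, fewer cells expressing a gene and less RNA per cell cannot be told apart.

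ETS factors bind sites built around GGAA, and ETV4 and ETV5 are ETS factors themselves, so the promoters of the listed genes were searched for an extended ETS core. Promoter windows from RefSeq (GRCh38.p14) were at hand for 6 of the 10 genes, in 9 windows, and there were none for DUSP4, DUSP5, ETV4 and ETV5. In the 250 bases before the start site, CCGGAA or its reverse complement TTCCGG was found in 1 window of SPRY2 and in that of PHLDA1. Both matches are shown with 40 bases on each side, 5′ to 3′ on the gene's own (minus) strand, with the match in capitals, since these were the only matches found:
SPRY2, chr13:80341223-80341308: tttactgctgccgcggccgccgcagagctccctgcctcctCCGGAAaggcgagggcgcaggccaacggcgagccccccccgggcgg
PHLDA1, chr12:76031820-76031905: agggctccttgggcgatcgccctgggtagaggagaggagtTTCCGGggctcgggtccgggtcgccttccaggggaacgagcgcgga
The match began 142 bases before the start of SPRY2 and 89 bases before that of PHLDA1. This string is common: 14.5% of the 35116 promoter windows of the table held it. The AP-1 string TGACTCA (4.2% of all windows) and the CRE string TGACGTCA (1.65%), searched on both strands, were found in none of the 9 windows, and the printed matches overlapped no other match. The motifs were chosen after the expression values had been seen.

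The libraries held 69669970 to 107350344 counts each. The replicates of M2 differed least (Spearman correlation across genes 0.998, common coefficient of variation 0.058) and those of M1 most (0.971 and 0.377), with M3 and M4 in between (0.307 and 0.271). HRAS, in normalised CPM (read counts scaled to a library of 1000000), was at 154 and 139 (M1), 160 and 154 (M2), 269 and 327 (M3) and 335 and 352 (M4). The labelled M2 libraries thus did not stand clear of M1 in total HRAS, and this count does not separate the transferred gene from the resident one. A further doubt concerns 2 libraries. In the expression table that accompanies the study, the values under M2 replicate 1 follow the library labelled M1 replicate 2 here, and the values under M1 replicate 2 follow the library labelled M2 replicate 1. Exchanging these labels would put the 2 libraries labelled M2, the replicates that differed least, in different lines. It would also make the numbers in the library names run from M1 to M4 in replicate 1 and again in replicate 2. The deposited labels break that order. Which assignment is right was not tested. The deposited labels were used throughout. For the 10 genes, the counts of the pathway lists and the overlapping genes, the values that changed are also given with the labels exchanged or with both libraries left out. KRT5, a basal epithelial keratin, lay between 2837 and 9190 CPM in every library. Of 8 basal markers, 2 were called higher in M2 than in M1 and 4 in M3, whereas in M4 compared to M1 KRT5 (-1.26), KRT14 (-2.37) and TP63 (-1.38) were called lower and ITGA6 higher. Of 8 luminal markers none was called in M2 compared to M1; KRT18 was called higher in M3 (1.21), KRT8 (1.26) and KRT18 (2.00) in M4, and GATA3 lower in both. Of 5 fibroblast markers, COL1A2 had no count in any library, and the summed level of the list was 60.2 and 8.60 CPM (M1), 74.4 and 72.4 (M2), 10.0 and 15.7 (M3) and 7.59 and 6.43 (M4). DCN gave much of it in M2 (6130 and 4125 counts) and COL1A1 most of it in M4 (7.31 and 6.07 CPM). Among leukocyte markers, CD3E had no count and PTPRC at most 3, but CD68, a lysosomal protein of macrophages that other cells also make, was at 9.55 and 4.03 CPM (M1), 6.12 and 5.83 (M2), 25.1 and 6.20 (M3) and 51.4 and 39.0 (M4), and was called higher in M4 compared to M1 (2.73) and to M2. The endothelial marker VWF was near the floor, with means of 0.139 CPM in M1, 0.00574 in M3 and 0.172 in M4. It was called lower in M3 compared to M1 (-4.25) and higher in M4 compared to M3 (4.565). The part of these marker differences in the values below was not tested.

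**Figure D1:**
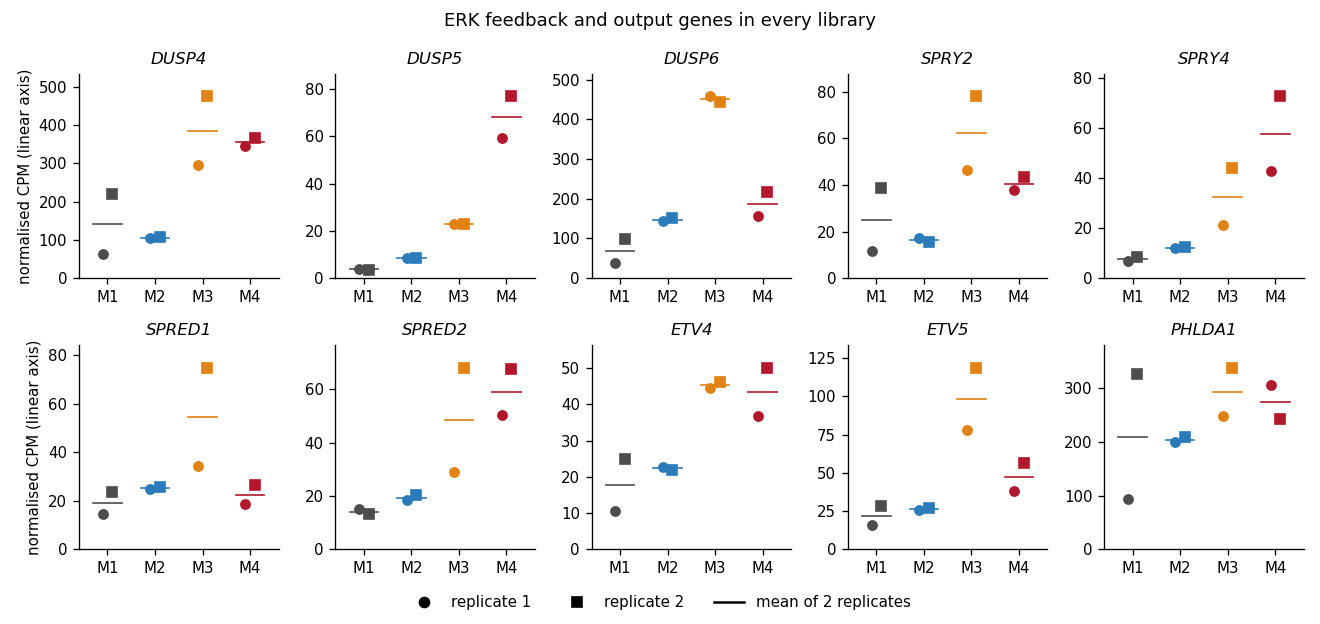
Normalised CPM (linear axes from 0) of the 10 genes in each library of M1, M2, M3 and M4 cells; circles are replicate 1, squares replicate 2 and lines the mean of 2. DUSP5 and SPRY4 have their highest mean in M4 and DUSP6, ETV5 and SPRED1 in M3, and in M1 the 2 replicates of DUSP4, SPRY2 and PHLDA1 are over 3-fold apart.

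DUSP5 encodes a nuclear phosphatase selective for ERK. The gene (ENSG00000138166) lies on chromosome 10, 112257665 to 112271291 (GRCh37). It was at 3.83 and 3.56 CPM (M1), 8.51 and 8.32 (M2), 22.8 and 23.0 (M3) and 59.4 and 76.9 (M4). Both libraries of each line were above both libraries of the line before it, with no overlap at any step. DUSP5 was upregulated by 1.19 ± 0.17 on the log2 scale (SE) in M2 compared to M1 (adjusted p = 0.0109, edgeR's quasi-likelihood test across all genes), by a further 1.44 ± 0.17 in M3 compared to M2 (adjusted p = 0.00463), and by 1.57 ± 0.16 in M4 compared to M3 (adjusted p = 0.00231). It was the only listed gene that passed the test at each of these steps, and its M4 mean was 18.4 times that of M1. The first steps depend on the labels in doubt: DUSP5 differed by -0.06 between M2 and M1 with the 2 libraries exchanged and by 1.12 with both left out, and by 1.95 and 1.46 between M3 and M2, none of these called. Leaving out either library of M2 also ended the calls in M2 compared to M1 (1.17 and 1.21) and in M3 compared to M2 (1.46 and 1.43). These fold changes stayed close to those of the full fit, and most calls over all tested genes were lost there as well.

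DUSP6 encodes the cytoplasmic phosphatase that is selective for ERK. The gene (ENSG00000139318) lies on chromosome 12, 89741012 to 89746278. Its libraries were at 38.2 and 99.1 CPM (M1), 143 and 152 (M2), 458 and 444 (M3) and 155 and 216 (M4). DUSP6 followed another course than DUSP5: it was highest in M3, where the replicates differed by a factor of 0.97, and the M4 libraries lay just above those of M2. The increase in M3 compared to M1 was 2.72 ± 0.41 (adjusted p = 0.00467). Neighboring steps did not pass the test, neither M2 compared to M1 (1.10 ± 0.39, adjusted p = 0.147) nor M3 compared to M2 (1.61 ± 0.39, adjusted p = 0.0592) nor M4 compared to M3 (-1.28 ± 0.39, adjusted p = 0.0615), although the libraries did not overlap in any of these.

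DUSP4, whose product is a nuclear phosphatase that acts on ERK and on the stress kinases, was more abundant but more variable. The gene (ENSG00000120875) lies on chromosome 8, 29190581 to 29208201. It was at 62.6 and 221 CPM (M1), 105 and 107 (M2), 294 and 475 (M3) and 344 and 367 (M4). The carcinoma-derived lines lay above all libraries of M1 and M2, but the 3.53-fold gap within M1 enclosed both M2 libraries. The difference was not called in M3 compared to M1 (1.44 ± 0.52, adjusted p = 0.0905) or in M3 compared to M2 (1.86 ± 0.53, adjusted p = 0.0923). M4 compared to M2 came closest (1.75 ± 0.53, adjusted p = 0.0526), and 7 of 13 alternative fits, among them DESeq2 and the fit without a low-count filter, called it (1.73 to 1.80). These fits reuse the same libraries, so their number is not separate evidence. Without the filter, the edgeR test gave the same fold change (1.75) with an adjusted p of 9.41e-16, from only 2 libraries a line. Without M1 replicate 2, DUSP4 was 2.62 higher in M3 than in M1, and called.

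Among the Sprouty genes, SPRY4 (ENSG00000187678; chromosome 5, 141689992 to 141706020) had a higher mean in each line than in the line before. Its level was 6.73 and 8.62 CPM (M1), 12.0 and 12.5 (M2), 21.3 and 44.1 (M3) and 42.8 and 72.8 (M4). The lines separated at each step but the last, where the higher M3 library passed the lower M4 library. SPRY4 was upregulated in M3 compared to M1 (2.09 ± 0.38, adjusted p = 0.009) and in M4 compared to M2 (2.24 ± 0.38, adjusted p = 0.0067). The latter call was lost without either M2 library (2.21 and 2.27) and without M1 replicate 2 and M2 replicate 1 together (2.21), and no single step between neighboring lines was called (adjusted p from 0.07 to 0.317). SPRY4-AS1, an antisense RNA whose span overlaps that of SPRY4 by 1247 bp with no shared exon, had 7 and 9 counts (M1), 17 and 13 (M2), 50 and 51 (M3) and 104 and 53 (M4). It was also called higher in M3 compared to M1 (2.63 ± 0.50, adjusted p = 0.0105), but not with the 2 doubtful libraries exchanged (2.25) or left out (2.83).

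SPRY2 (ENSG00000136158; chromosome 13, 80910111 to 80915261), the other Sprouty gene, was at 11.5 and 38.7 CPM (M1), 17.3 and 15.3 (M2), 46.4 and 78.0 (M3) and 38.0 and 43.2 (M4). The M1 replicates lay on both sides of M2, and the higher one reached the M4 level. No comparison of SPRY2 was called, and the largest difference was 1.93 ± 0.52 in M3 compared to M2 (adjusted p = 0.0817). Without M1 replicate 2 it was called higher in M3 and in M4 compared to M1 (2.44 and 1.82).

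The SPRED genes parted in M4. SPRED1 (ENSG00000166068; chromosome 15, 38545037 to 38649450) was at 14.7 and 23.6 CPM (M1), 24.8 and 25.6 (M2), 34.3 and 75.0 (M3) and 18.5 and 26.4 (M4). It rose in M3 compared to M1 (1.52 ± 0.39, adjusted p = 0.0305), whereas its M4 libraries overlapped those of M1 and of M2. This call rested on the higher M3 library: without M3 replicate 2 the difference was 0.85 and not called. The call was also lost without M1 replicate 1 (1.22) and when only the libraries of M1 and M3 were fitted (1.51).

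SPRED2 (ENSG00000198369; chromosome 2, 65537985 to 65659771) was at 15.1 and 13.3 CPM (M1), 18.4 and 20.2 (M2), 28.8 and 68.1 (M3) and 50.2 and 67.6 (M4). Here the M4 libraries stayed high, and both lay between those of M3. SPRED2 rose in M3 compared to M1 (1.78 ± 0.37, adjusted p = 0.0146) and in M4 compared to M2 (1.61 ± 0.37, adjusted p = 0.0196). The call in M3 was lost without either M1 library (1.88 and 1.69) and when only the libraries of M1 and M3 were fitted (1.77). The call in M4 compared to M2 was lost without any single library of those lines (1.40 to 1.81) and without the 2 doubtful libraries (1.54). M4 differed from M3 by -1.28 ± 0.38 for SPRED1 (adjusted p = 0.0585) and by 0.28 ± 0.36 for SPRED2 (adjusted p = 0.621), neither called.

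ETV4 and ETV5 encode transcription factors of the PEA3 group of ETS proteins. ETV5 (ENSG00000244405; chromosome 3, 185764103 to 185828107) was at 16.1 and 28.1 CPM (M1), 26.0 and 27.2 (M2), 77.7 and 119 (M3) and 38.5 and 56.2 (M4). Its libraries in M1 and M2 overlapped, M3 stood above all others, and M4 lay in between. ETV5 was upregulated in M3 compared to M1 (2.16 ± 0.33, adjusted p = 0.00458) and to M2 (1.88 ± 0.32, adjusted p = 0.0184). The latter call was lost without either M2 library (1.85 and 1.92), without M3 replicate 2 (1.55) or without the 2 doubtful libraries (1.85). Its 2.08-fold higher mean in M3 than in M4 was not called (adjusted p = 0.0577).

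ETV4 (ENSG00000175832; chromosome 17, 41605212 to 41656988) was at 10.7 and 24.9 CPM (M1), 22.7 and 22.0 (M2), 44.5 and 46.1 (M3) and 36.8 and 50.2 (M4). It was about equally high in M3 and M4 (-0.06 ± 0.35 in M4 compared to M3, adjusted p = 0.924). ETV4 rose in M3 compared to M1 by 1.35 ± 0.35 (adjusted p = 0.0336). That call was lost when only the libraries of M1 and M3 were fitted (1.35). It was also lost when M1 replicate 1 (0.87) or either M3 library (1.38 and 1.33) was left out.

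PHLDA1 (ENSG00000139289; chromosome 12, 76419227 to 76425556) encodes a pleckstrin homology-like domain protein that growth factors induce. It was at 93.3 and 327 CPM (M1), 200 and 208 (M2), 249 and 338 (M3) and 306 and 242 (M4). The M1 libraries were the lowest and the second highest of the 8, and no pair of lines was called for this gene. The difference was 0.48 ± 0.50 in M3 compared to M1 (adjusted p = 0.523). It was 1.66 and called without M1 replicate 2, and -0.15 without M1 replicate 1. PHLDA1-AS1, an antisense RNA that shares 553 exonic bp with PHLDA1 on the opposite strand, had 300 to 1333 counts against 7716 to 34762 for PHLDA1. Whether counting was strand-specific is not given in the sources used here, so reads in the shared stretch cannot be assigned to either gene.

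**Figure D2:**
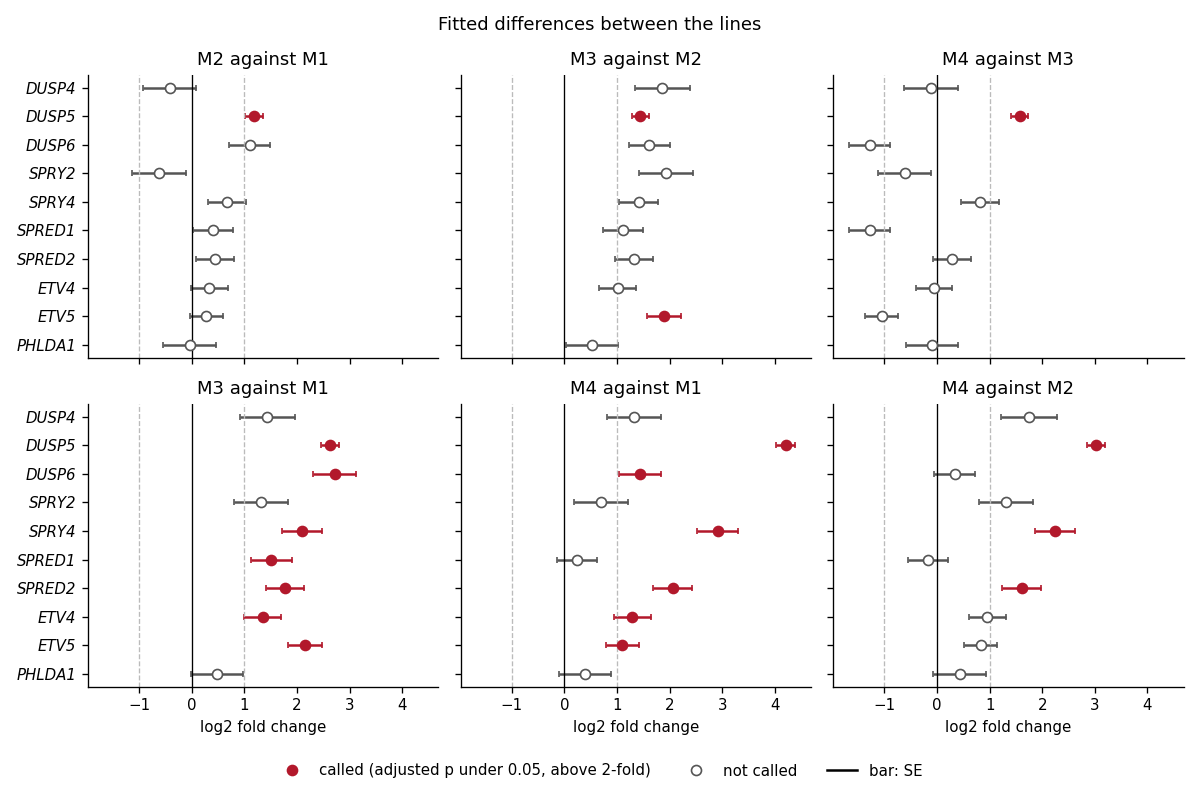
Log2 fold change of each gene in the 6 comparisons of lines, with bars for the SE; filled red points were called (adjusted p under 0.05 and more than 2-fold) and open points were not. DUSP5 is called in all 6 panels, 7 genes are called in M3 against M1, and no gene is called lower in any panel.

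Counted over the list, 1 of the 10 genes was called higher in M2 compared to M1 (DUSP5), where 2.26% of all tested genes were called higher and 1.11% lower. For M3 compared to M1 the count was 7 of 10, all higher (DUSP5, DUSP6, SPRY4, SPRED1, SPRED2, ETV4 and ETV5), with 8.02% of all tested genes called higher and 5.51% lower. Against M2, 2 genes were called in M3 (DUSP5 and ETV5), against 2.95% higher and 1.2% lower in the background. All 10 genes lay higher in both M3 libraries than in both M2 libraries, as did 29.9% of all tested genes, with a median log2 fold change of 1.43 over the list and of -0.004 over all tested genes. Against M2, 3 genes were called in M4 (DUSP5, SPRY4 and SPRED2), against 6.98% higher and 6.94% lower. In M4 compared to M3, which were both grown without EGF, DUSP5 alone was called, against 3.99% higher and 6.3% lower. Here 4 genes (DUSP6, SPRY2, SPRED1 and ETV5) were lower in both M4 libraries than in both M3 libraries, as were 31.5% of all tested genes, and the list's median was -0.11, beside -0.02 over all genes.

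M4 compared to M1 was the comparison in which such genes were noticed before, so its values are given as a description. DUSP5 stood 4.20 ± 0.18 higher on the log2 scale, SPRY4 2.91 ± 0.39, SPRED2 2.06 ± 0.37, DUSP6 1.44 ± 0.39, DUSP4 1.33 ± 0.52, ETV4 1.29 ± 0.35 and ETV5 1.10 ± 0.32. SPRY2 (0.69 ± 0.51), PHLDA1 (0.39 ± 0.50) and SPRED1 (0.23 ± 0.38) differed least. Of these, 6 genes passed the call (DUSP5, DUSP6, SPRY4, SPRED2, ETV4 and ETV5), beside 9.48% of all tested genes called higher and 11.2% lower. DUSP4 was not called. When only the libraries of M1 and M4 were fitted, the calls of DUSP6 (1.43), ETV4 (1.29) and ETV5 (1.10) were lost. The comparisons share libraries, so their calls are not separate observations.

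Leaving out 1 library moved these counts, and where a line was left with 1 library, that library was assumed to vary like the other lines. Calls over all tested genes moved as well. Without either M2 library, most of them were lost in M2 compared to M1 and in M3 compared to M2. The losses without an M2 library are therefore not particular to the list. Elsewhere the list did not always move with all tested genes. Without M1 replicate 2, its counts rose in M3 and in M4 compared to M1, where calls over all tested genes fell. In M3 compared to M1, 4 genes were called without M1 replicate 1, 9 without M1 replicate 2, 6 without M3 replicate 1 and 5 without M3 replicate 2. In M4 compared to M1 the counts were 3, 9, 4 and 3 for M1 replicates 1 and 2 and M4 replicates 1 and 2. Without M1 replicate 2, 4 genes were called in M2 compared to M1 (DUSP5, DUSP6, ETV4 and PHLDA1), and none without either M2 library. Without either M2 library, none was called in M3 compared to M2, where 4 were called without M3 replicate 1 and 1 without M3 replicate 2. The count in M4 compared to M2 was 1 without either M2 library, and in M4 compared to M3, 3 higher without M3 replicate 2. No gene of the list was called lower in these fits except 1, SPRED1 in M4 compared to M3 without M3 replicate 1 (-1.75).

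**Figure D3:**
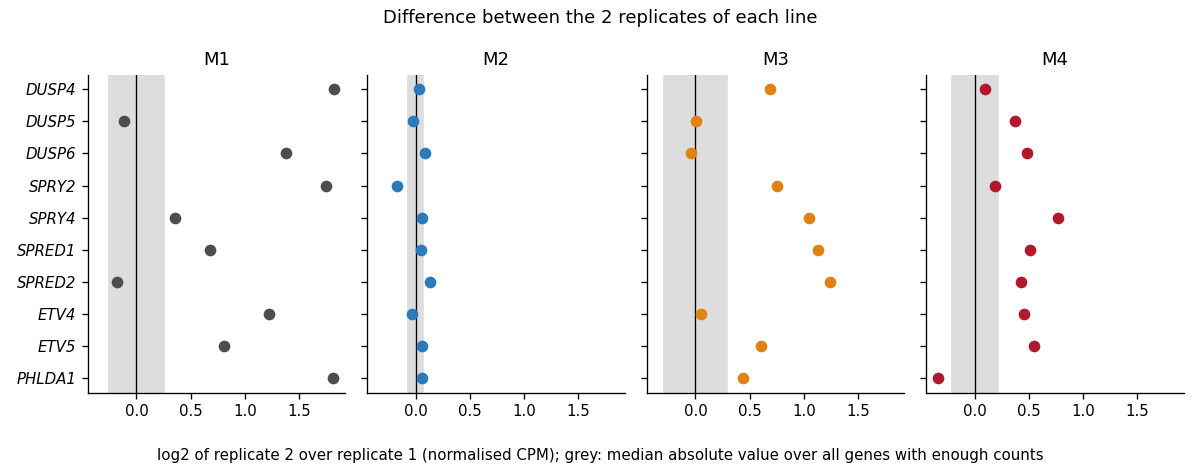
Log2 ratio of replicate 2 to replicate 1 for each gene in M1, M2, M3 and M4 cells; the grey band is the median absolute ratio over 15823 genes. In M1, 8 of 10 genes were higher in replicate 2, by a median of 1.01 over the list, whereas all genes of M2 lie close to 0.

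Between the replicates of M1, M3 and M4, these genes differed by more than the median gene. In M1 the median absolute log2 ratio between the 2 libraries was 1.01 over the list and 0.25 over 15823 genes. The list's value was 0.65 in M3 and 0.44 in M4, beside 0.29 and 0.21 over all genes. In M2 it was 0.06, beside 0.07. Most genes of the list also moved in the same direction between replicates. In M1, 8 of 10 were higher in replicate 2, among them DUSP4 (3.53-fold), PHLDA1 (3.50-fold), SPRY2 (3.36-fold), DUSP6 (2.60-fold) and ETV4 (2.33-fold), while DUSP5 (0.93-fold) and SPRED2 (0.88-fold) were not. In M3, 9 of 10 were higher in replicate 2, led by SPRED2 (2.36-fold), SPRED1 (2.19-fold) and SPRY4 (2.07-fold), so that other genes led than in M1. In M4, 9 of 10 were higher in replicate 2, led by SPRY4 (1.70-fold), and PHLDA1 was the exception (0.79-fold). About 50% of all genes were higher in replicate 2 (49.8% in M1, 49.7% in M3 and 50.7% in M4). The further pathway lists described below did not all share the shift. In M1, 5 of 15 feedback regulators and 14 of 20 output genes were higher in replicate 2. These counts were 6 and 15 in M3, and 4 and 7 in M4. Of 18 cascade components, 3, 12 and 13 were higher in M1, M3 and M4. DUSP5, called at every step between neighboring lines, had a ratio of 0.93 to 1.30 in every line.

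**Figure D4:**
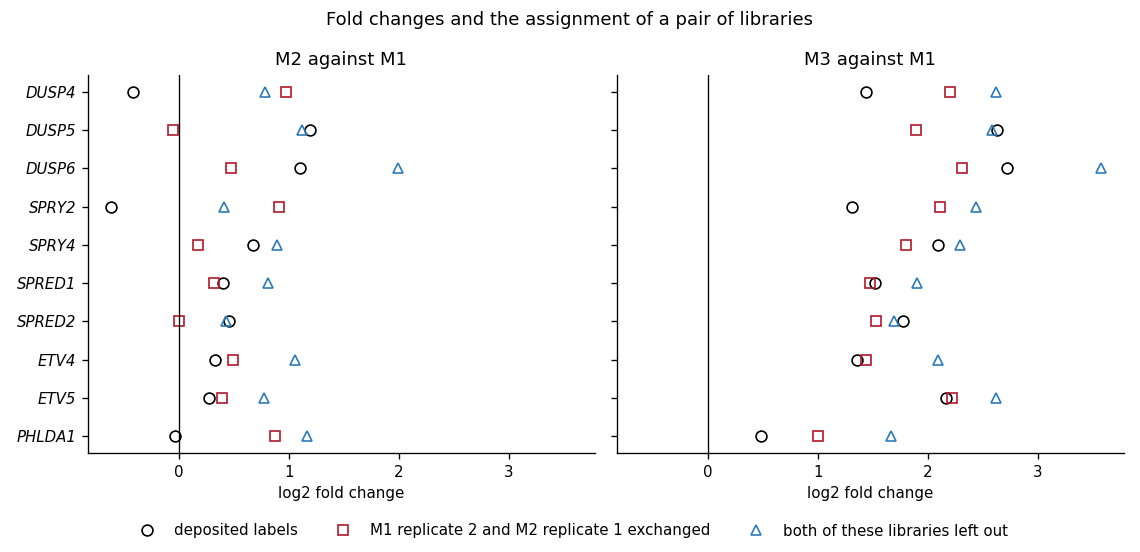
Log2 fold change of the 10 genes in M2 against M1 and M3 against M1 with the deposited labels (circles), with M1 replicate 2 and M2 replicate 1 exchanged (squares) and with both libraries left out (triangles). In M2 against M1, DUSP4 and SPRY2 lie below 0 with the deposited labels and above 0 otherwise; in M3 against M1 all 30 values lie above 0.

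With the 2 doubtful libraries exchanged, none of the 10 genes was called in M2 compared to M1, where 0 of all 18431 tested genes were called. DUSP4 then differed by 0.97 in place of -0.42, SPRY2 by 0.91 in place of -0.62 and PHLDA1 by 0.87 in place of -0.04. In M3 compared to M1, only ETV5 was still called, although all 10 differences stayed positive (DUSP5 1.89, DUSP6 2.31, SPRY4 1.80, SPRED1 1.47, SPRED2 1.53 and ETV4 1.44). Of all tested genes, 219 were called there with the exchange and 2494 with the deposited labels. The exchange left 1 call, ETV5 (1.83), in M3 compared to M2, beside 214 over all tested genes (765 with the deposited labels). For M4 compared to M1 the exchange gave 5: the calls of DUSP6 (1.03) and ETV5 (1.17) were lost and DUSP4 (2.08) gained. Over all tested genes the calls there went from 3821 to 1559. Leaving out both libraries gave fewer calls over all tested genes in every comparison with M1 or M2. With both libraries left out, none was called in M2 compared to M1. In M3 compared to M1 the count was again 7, but 3 of the genes changed: SPRY4 (2.29), SPRED1 (1.90) and SPRED2 (1.69) were lost, and DUSP4 (2.62), SPRY2 (2.44) and PHLDA1 (1.66) gained. In M4 compared to M1, 8 were called, with SPRED2 (1.97) lost and DUSP4 (2.51), SPRY2 (1.82) and PHLDA1 (1.56) gained. M3 compared to M2 had 1 call, which was SPRY2 (2.02), since DUSP5 (1.46) and ETV5 (1.85) were lost. M4 compared to M2 had 2, with SPRY4 (2.21) and SPRED2 (1.54) lost and DUSP4 (1.73) gained. M4 compared to M3 uses neither library in its means, but it shares the estimate of the spread over all lines. Over all tested genes its calls went from 1897 to 830 with the exchange. The values of the 10 genes in this comparison under the exchange are not given here.

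To compare levels between genes, CPM was divided by the length of the exons in kb. That length took in all annotated exons of a gene in GENCODE 44, whereas the counts were made on GENCODE v19. How far this moves the order of the genes was not tested. On this scale PHLDA1 (35.5 ± 27.9, SD, n = 2), DUSP4 (19.5 ± 15.4) and DUSP6 (17.8 ± 11.2) had the highest levels in M1, and SPRY4 (1.17 ± 0.20) and DUSP5 (1.46 ± 0.075) the lowest. In M3, DUSP6 stood highest (117 ± 2.48), followed by DUSP4 (52.9 ± 17.6) and PHLDA1 (49.6 ± 10.7), and SPRY4 was still the lowest (4.99 ± 2.45). In M4, DUSP4 (48.9 ± 2.19), DUSP6 (48.1 ± 11.1) and PHLDA1 (46.4 ± 7.66) lay within their replicate spread of each other. DUSP5 followed them (26.9 ± 4.89), above all other genes of the list, and SPRED1 was the lowest (2.90 ± 0.72).

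For 1 gene of each role, the genes with the most similar course over the 8 libraries were found by the mean absolute difference of centred log2 CPM among 13084 genes with a mean count of at least 100. For DUSP6 these were PMP22 (difference 0.184), TPST1 (0.209) and SRPX (0.21). They too were highest in M3, SRPX for example with 53.6 and 49.2 CPM, against 2.77 and 8.56 in M1 and 12.0 and 21.7 in M4. For SPRY4 they were TRIB3 (0.184), ATP13A3 (0.218) and SPHK1 (0.231). TRIB3 rose from 36.8 and 42.2 CPM in M1 to 210 and 290 in M4. For ETV5 they were PLXND1 (0.212), SLC45A3 (0.228) and DNAH2 (0.229). For PHLDA1 they were GPSM1 (0.065), PDGFC (0.164) and OSMR (0.197), and GPSM1 shared the low M1 replicate 1 (4.98 CPM) and the high M1 replicate 2 (18.3 CPM). Within the list the closest pairs were DUSP4 with SPRY2 (0.214) and SPRY4 with SPRED2 (0.262), and the least alike were DUSP5 and SPRED1 (1.3).

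**Figure D5:**
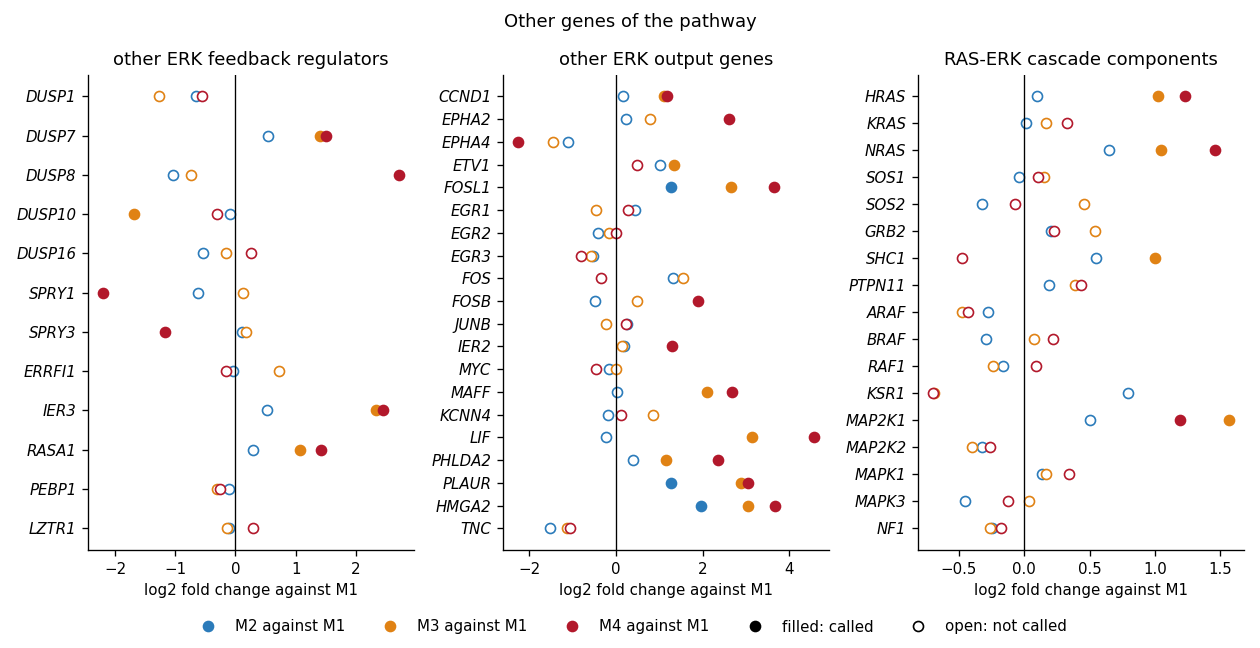
Log2 fold change against M1 of other feedback regulators, other output genes and components of the cascade (genes averaging under 1 CPM and DUSP2 are not drawn); filled points were called and open points were not. FOSL1, PLAUR and HMGA2 are called in all 3 lines, and LIF reaches the highest value, 4.57 in M4.

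Other genes of the pathway were read from 3 lists written from general knowledge. Among 20 further ERK output genes, 3 were called higher in M2 compared to M1 and none lower: HMGA2, a chromatin protein (1.96 ± 0.30), PLAUR, the urokinase receptor (1.28 ± 0.17), and FOSL1, an AP-1 subunit (1.27 ± 0.19). Of all tested genes, 2.26% were called higher and 1.11% lower in this comparison. With the exchanged labels 0 of them were called, and without either M2 library nearly all calls were lost. The list's count was 0 with the exchanged labels and without either M2 library, 1 with both doubtful libraries left out, and 6 without M1 replicate 2. M3 compared to M1 had 8 called higher and none lower, led by the cytokine gene LIF (3.14 ± 0.50), HMGA2 (3.04 ± 0.31) and PLAUR (2.89 ± 0.18), beside 8.02% higher and 5.51% lower over all tested genes. The count was 2 with the exchanged labels and 5 without M3 replicate 2. M4 compared to M1 had 10 called higher, led by LIF (4.57 ± 0.53), HMGA2 (3.67 ± 0.32) and FOSL1 (3.65 ± 0.20), and 1 lower, the ephrin receptor gene EPHA4 (-2.26 ± 0.46), beside 9.48% and 11.2%. FOSL1 was at 10.6 and 15.4 CPM (M1), 31.0 and 31.3 (M2), 76.2 and 86.6 (M3) and 167 and 158 (M4), with no overlap at any step. The list's median was 0.18, 0.83 and 0.83 in M2, M3 and M4 compared to M1, beside -0.04, -0.02 and -0.02 over all genes. From M3 to M4, EPHA2 (1.81 ± 0.27), PHLDA2 (1.19 ± 0.19) and IER2 (1.14 ± 0.21) were called higher and the early gene FOS lower (-1.89 ± 0.47), beside 3.99% and 6.3%, a total of 4 that dropped to 1 without M4 replicate 1 and to 2 without M3 replicate 1.

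The 15 genes listed as other feedback regulators did not share one direction. Whether ERK induces each of them in these cells was not tested. None of the 15 genes was called in M2 compared to M1, where the background was 2.26% higher and 1.11% lower. In M3 compared to M1, IER3 (2.33 ± 0.57), the phosphatase gene DUSP7 (1.41 ± 0.14) and the RAS GTPase-activating gene RASA1 (1.07 ± 0.12) were called higher, and DUSP10 lower (-1.70 ± 0.44), beside 8.02% and 5.51% of all tested genes. The total of 4 became 0 with the exchanged labels and 2 without M3 replicate 2. M4 compared to M1 had 4 called higher, led by DUSP8 (2.72 ± 0.52), IER3 (2.46 ± 0.57) and DUSP7 (1.50 ± 0.14), and 3 lower, beside 9.48% and 11.2%. The lower ones were DUSP2, with 1611 and 772 counts in M1 but 3 and 1 in M4, SPRY1 (-2.21 ± 0.51), and SPRY3 (-1.17 ± 0.38). The total of 7 became 4 without either M4 library. The list's median was -0.12, -0.14 and -0.26 in M2, M3 and M4 compared to M1. From M3 to M4, DUSP8 was called higher (3.45 ± 0.54) and DUSP2, DUSP9, SPRY1 and SPRY3 lower, among them SPRY1 by -2.33 ± 0.51, beside 3.99% and 6.3%. DUSP9 had 79 and 57 counts in M3 and 0 in both M4 libraries. The total of 5 became 1 without M4 replicate 1 and 3 without either M3 library. Thus SPRY1 and SPRY3 were lowest in M4, where SPRY4 was highest.

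Of 18 components of the cascade, none was called in M2 compared to M1 (background 2.26% higher and 1.11% lower). In M3 compared to M1, 4 were called higher, led by MAP2K1, which encodes MEK1 (1.57 ± 0.18), NRAS (1.04 ± 0.15) and HRAS (1.03 ± 0.15), and in M4 compared to M1 these 3 (1.19 ± 0.18, 1.46 ± 0.16 and 1.23 ± 0.15). Over all tested genes, 8.02% and 9.48% were called higher in these comparisons and 5.51% and 11.2% lower. SHC1, an adaptor between receptors and RAS, was the only one called in M4 compared to M3 (-1.48 ± 0.19), beside 3.99% higher and 6.3% lower. The count in M3 was 0 with the exchanged labels, 2 with both doubtful libraries left out, 1 when library totals replaced TMM scaling, and 2 without M1 replicate 2 or M3 replicate 2. The list's median was -0.01, 0.17 and 0.16 in M2, M3 and M4 compared to M1.

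Besides the antisense genes of SPRY4 and PHLDA1, 4 annotated genes in the count table overlap a listed gene. DHX8 overlaps ETV4 on the opposite strand with 68 shared exonic bp and differed by at most -0.25 ± 0.13 (M3 compared to M1), with no comparison called. ETV5-AS1 had 0 or 1 count in each library. DGKG shares 164 exonic bp with ETV5 on the same strand. It had 92 and 69 counts (M1), 298 and 227 (M2), 340 and 639 (M3) and 452 and 393 (M4), and was called higher in M2 compared to M1 (1.65 ± 0.36, adjusted p = 0.0434), where ETV5 was not. DGKG was not called there with the doubtful libraries exchanged (0.01) or left out (1.54). A lncRNA gene within the span of SPRED2 had no count. An unnamed lncRNA that shares 1105 exonic bp with DUSP6 on the opposite strand in the newer annotation was not analysed here.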

How the data were processed

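The authors trimmed paired-end HiSeq reads of poly A+ libraries with Trimmomatic, aligned them to hg19 (GRCh37) with STAR and estimated expected counts per GENCODE v19 gene with RSEM. Picard is also named in their notes. Versions and the use of strand in counting are not given in the sources used here. The deposited expected counts (12.8% of values not whole) were rounded to whole numbers. Gene symbols and positions came from GENCODE 44 lifted to GRCh37.

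Genes were tested with edgeR 4.0.16 (R 4.3.3; quasi-likelihood test, robust) on all 8 libraries with 1 coefficient per line, TMM scaling and the filterByExpr filter, with Benjamini-Hochberg adjustment over 18431 genes. Calls needed an adjusted p under 0.05 and a fold change of more than 2 in either direction. The SE is the absolute log2 fold change divided by the square root of F. CPM used TMM-scaled library sizes. The fit was tested on simulated data.

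The 10 genes, the pathway lists and the tests were chosen with earlier results of these data known. The genes named are the 10, HRAS, genes overlapping them, up to 3 called genes of each list with the largest change in each direction and comparison, and the 3 nearest profiles of DUSP6, SPRY4, ETV5 and PHLDA1; SPRY3 in M4 against M3, the cell type markers were named after their values were seen. Of the lists, DUSP14 and PECAM1 were not matched to the table. The study calls its replicates biological. Replicates differed by more than sampling noise in every line. Whether replicate numbers pair the samples is not stated. The correlation of replicate differences was -0.054 to 0.018 between lines, except 0.215 between M3 and M4. By the library names and the deposited labels, the replicates of M1 were numbered next to each other, as were those of M2. Those of M3 and of M4 were apart. The check could therefore not show a set of libraries along that order in M1 or M2. Nor can M2 against M1 be told apart from that order, whose meaning is not stated. Alternatives were DESeq2 1.42.0, other scaling, other filters, a replicate block, only the lines compared, exchanged or omitted libraries and each library left out. Omitting the 2 doubtful libraries was chosen after seeing the data.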

Additional observations from a re-analysis of the deposited data

How the results depend on the processing

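Of 760 recomputed fold changes of the 10 genes, 612 kept their direction and their side of the threshold, 70 passed it newly, 52 no longer passed it and 26 reversed. Scaling by DESeq2-type size factors changed none of the 60. Whether replicate number pairs the lines is not stated. With it as a replicate block, 4 genes were called in M3 against M2 and 4 in M4 against M3. The latter were DUSP5, higher, and DUSP6, SPRED1 and ETV5, lower. PHLDA1 in M2 against M1 went to 0.09, and the other counts of the 10 genes stayed within 1.5 times. DESeq2 and no low-count filter gave the same counts of the 10 genes where these moved: 2 in M2 against M1, 9 in M3 against M2, 5 in M4 against M2 and 4 in M4 against M3. For the other output genes DESeq2 called 5 in M2 against M1 and 7 in M4 against M3; no filter called 7 in M2 against M1, and 7 feedback regulators in M3 against M1. Fitting only the lines compared called 4 in M3 against M1, 3 in M4 against M1, 6 in M3 against M2, 5 in M4 against M2 and 2 in M4 against M3, and 4 feedback regulators in M4 against M1. With total counts, 1 cascade component was called in M3 against M1, and in M4 against M3 ETV4 went to 0.06 and PHLDA1 to 0.02. The causes were not tested.

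With the exchanged labels, counts of the 10 genes were 0 in M2 against M1, 1 in M3 against M1 and 1 in M3 against M2. Of all 18431 tested genes, 0, 219 and 214 were called in these comparisons. The other output genes gave 0 and 2 in M2 and M3 against M1, and feedback regulators and cascade components 0 in M3 against M1. In M2 against M1, the exchange turned DUSP4 to 0.97, DUSP5 to -0.06, SPRY2 to 0.91, SPRED2 to 0 and PHLDA1 to 0.87. With both libraries left out, 0 of the 10 genes were called in M2 against M1, 1 in M3 against M2 (SPRY2), 1 other output gene in M2 against M1 and 2 cascade components in M3 against M1; in M2 against M1, DUSP4 was 0.78, SPRY2 0.41 and PHLDA1 1.16.

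Leaving out each library in turn, the 10 genes gave 0 to 4 calls in M2 against M1, 4 to 9 in M3 against M1, 3 to 9 in M4 against M1, 0 to 4 in M3 against M2, 1 to 2 in M4 against M2 and 1 to 3 in M4 against M3. Feedback regulators gave 0 to 1, 2 to 5 and 4 to 7 in M2, M3 and M4 against M1 and 1 to 4 in M4 against M3. Other output genes gave 0 to 6 in M2 against M1, 5 to 9 in M3 against M1 and 1 to 5 in M4 against M3. Cascade components gave 2 to 3 in M3 against M1. Fold changes that reversed ranged in M2 against M1 from -1.06 to 0.76 (DUSP4), -1.25 to 0.5 (SPRY2), -0.15 to 1.07 (ETV4), -0.08 to 0.73 (ETV5) and -0.68 to 1.13 (PHLDA1). PHLDA1 ranged from -0.15 to 1.66 in M3 and from -0.23 to 1.56 in M4 against M1, and SPRED1 from -0.06 to 0.61 in M4 against M1 and from -0.42 to 0.07 in M4 against M2. In M4 against M3 the ranges were -0.42 to 0.27 (DUSP4), -0.22 to 1.03 (SPRED2), -0.28 to 0.15 (ETV4) and -0.31 to 0.14 (PHLDA1). Calls over all tested genes moved in these fits as well. Depth was not varied, and the part of depth in these limits was not tested.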
